A study of Mus musculus with 4 samples.

Results

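Skeletal muscle progenitors of day 11 gastruloids were taken as the cells of the day 11 library with at least 2000 UMIs (counted RNA molecules) and a mitochondrial share under 20% in which at least 2 of the genes Msc, Pax7, Myf5 and Myod1 were found with a sum of 3 or more UMIs, in which Myog plus Myh3 stayed under 5 per 10000 UMIs and in which Myl7 stayed under 30 per 10000 UMIs. This gave 175 of the 8730 cells that passed the depth and mitochondrial limits (2.00%, exact binomial 95% interval 1.72 to 2.32%). The study profiled gastruloids, which are aggregates of mouse embryonic stem cells that develop tissues of all germ layers, from the wild type stem cell line Zx1 at days 4, 5, 6 and 11, with 1 library of single cells per day. All of them had been aggregated in N2B27 medium and had received a pulse of the Wnt agonist CHIR99021. Per the study's methods, bFGF, VEGF and ascorbic acid were supplied from day 4 to day 7, a period in which the gastruloids of days 5 and 6 were collected, and the culture went on in N2B27 alone until day 11. Each library came from the pooled cells of several gastruloids of 1 stem cell line, so all intervals given here cover counting error only, and no value has an error between gastruloids or experiments and no test between conditions was possible. The members were chosen by measured counts, so the values of the 7 genes of the rule are a description of the choice.

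In the embryo, skeletal muscle of the trunk and limbs comes from somites under Pax3 and Pax7, whereas muscles of the head and pharyngeal arches come from cardiopharyngeal mesoderm that depends on Tbx1, Tcf21 and Msc in place of Pax3. Both routes converge on the basic helix-loop-helix factors Myf5 and Myod1, which bind E-boxes and commit cells to myogenesis, and then on Myog, which drives withdrawal from the cell cycle, fusion and sarcomere assembly. Progenitors that are held back from this step, by Notch signalling among others, keep dividing and later provide the Pax7-positive satellite cells of adult muscle.

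Of the genes of the rule, Msc (also called MyoR, a repressor of the helix-loop-helix family) was the most abundant, with 892 UMIs, 207 CPM (counts per 1000000 UMIs, summed over the cells of a set), found in 88.6% of the cells. Pax7, the paired box factor of muscle progenitors and satellite cells, had 504 UMIs, 117 CPM, found in 152 of 175 cells. Myod1 had 336 UMIs, 77.8 CPM, found in 94 of 175 cells and Myf5 had 175 UMIs, 40.5 CPM, found in 90 of 175 cells. Most cells therefore paired Msc with Pax7, and the determination factors Myf5 and Myod1 were each found in about equal numbers of cells. All 4 genes were found in 34 cells, Msc with Pax7 alone in 39 cells, these with Myf5 in 32 cells and these with Myod1 in 29 cells. A cell of the set held 3 to 30 UMIs of the 4 genes, with a median of 10. At the edges of the rule, 3 cells inside had a sum of 3 UMIs and 10 cells outside had 2 UMIs of 2 genes. The highest Myog plus Myh3 level inside was 4.88 per 10000 UMIs and the lowest outside was 5.92. The highest Myl7 level inside was 22.1 per 10000 UMIs and the lowest outside was 39.9. Another 63 cells held 3 or more UMIs of 1 of the 4 genes alone, 39 of them Pax7, 17 Msc, 5 Myod1 and 2 Myf5, and were left with the other cells.

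The label was checked with genes outside the rule. Cells were grouped by Leiden clustering without the 7 genes, which gave 23 clusters, and 162 of the 175 cells (92.6%) fell into 1 cluster of 276 cells, where they made up 58.7%. The median progenitor had 17 progenitors among its 20 nearest neighbours. Car3, Itga4 and Cdh15, which were not in the rule and are known in muscle precursors, were higher in them than in the other cells (values follow). Car3 and Itga4 were among the markers given for this set with earlier results of these data known, so they are no independent check. Of markers of other cell types, Sox10 and Foxd3 of neural crest, Cdh1 and Foxa2 of endoderm, and Ptprc and Csf1r of blood were at 0 UMIs in all progenitors. The whole lists did not all go this way. Of the 5 neural crest and glia markers 3 were at 0 UMIs, but their sum was 27.1 CPM against 9.24 CPM in all other cells. In the Myog or Myh3 high cells described below it was 53.7 CPM. Erbb3, also known in neural crest, was at 24.3 CPM. The 7 endoderm markers summed to 2.55 against 279 CPM and the 6 blood markers to 1.62 against 152 CPM. The 8 endothelium markers, summed, stood at 77.4 CPM against 307 CPM in the other cells, 9 cardiomyocyte markers (Myl7, which the rule limits, left out) at 162 against 4540.5 CPM, and the 8 neural markers at 99.8 against 662 CPM. These other cells include cells of each of these types, so a lower sum in the progenitors says little. In the mesenchyme cells described below the same sums were 17.2, 183 and 105 CPM. Beside these, the endothelium sum of the progenitors was higher and the others were near. Few cells held the endothelium markers: Ecscr was found in 4 progenitors, with 62 of its 74 UMIs in 1 cell, and Cdh5 and Emcn in 2 each. In single progenitors thinned to 5000 UMIs, the median and the upper quartile of the endothelium sum were 0 UMIs. The rules used for comparison sets (2 or more genes of Cdh5, Pecam1, Tek and Emcn for endothelium, of Sox2, Pax6, Hes5, Elavl3 and Elavl4 for neural cells, and of Pdgfra, Prrx1 and Twist1 for mesenchyme) were also met by 2, 4 and 23 progenitors, and 12 progenitors were among the 8% of cells with the highest doublet scores. The part that cells of mixed identity have in the values was not tested, and the effect of leaving such cells out on each main count is given in the closing section.

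The other cells of day 11 were divided, in this order of precedence, into 90 cells with Myog found and Myog plus Myh3 at 5 or more per 10000 UMIs (called Myog or Myh3 high cells), 1615 cells at or above the Myl7 limit, 547 endothelium, 1099 neural and 2747 mesenchyme cells by the rules above, and 2457 remaining cells. The progenitors were deep, with 8621 to 83424 UMIs and a median of 22906, close to the median of 21562.5 in the Myog or Myh3 high cells and above that of 11934 over all 8555 other cells. Shares of cells with a UMI are therefore given after each cell was thinned at random to 5000 UMIs, which left out 0 progenitors, 2 Myog or Myh3 high cells and 340 of all other cells. At days 4 and 5, 0 of 7202 and 0 of 7408 cells met the rule, which allows shares of up to 0.0417% and 0.0405%. At day 6 the rule was met by 2 of 5850 cells, with 46037 and 65921 UMIs. Both day 6 cells held 1 UMI of Pax7, 2 of Myf5 and 12 of Pax3, with 66 and 36 Hox UMIs, and neither held Car3, Itga4 or Cdh15. The first also held 11 UMIs of the neural gene Sox2 and 5 of the somite gene Meox1, and the other 0 and 4. Of the 9584 barcodes of day 11, 18, 23 and 16 also occurred in the libraries of days 4, 5 and 6, and 1 progenitor was among them.

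Before the values, the sequence upstream of 3 genes is shown, because Itga4 and Nrk were among the genes that set the progenitors apart from all other cells and Chodl was among the genes that differed most between progenitors with and without Myod1. Each run covers 250 bases before the start of the RefSeq gene (mouse build GRCm38.p6), outside any exon of GENCODE vM21, and reads 5′ to 3′ on the strand of the gene. The E-boxes CAGCTG and CAGGTG (searched on both strands, where CAGGTG reads CACCTG on the other), which helix-loop-helix factors such as Myod1 bind, are in capitals. The Itga4 window lies at chr2:79255176-79255425 (plus strand), that of Nrk at chrX:138914180-138914429 (plus strand) and that of Chodl at chr16:78930698-78930947 (plus strand).
Itga4: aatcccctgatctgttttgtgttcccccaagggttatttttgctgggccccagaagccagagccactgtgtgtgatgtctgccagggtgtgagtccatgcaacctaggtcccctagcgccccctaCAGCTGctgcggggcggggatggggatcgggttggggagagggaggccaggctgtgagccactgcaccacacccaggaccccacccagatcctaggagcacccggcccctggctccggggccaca
Nrk: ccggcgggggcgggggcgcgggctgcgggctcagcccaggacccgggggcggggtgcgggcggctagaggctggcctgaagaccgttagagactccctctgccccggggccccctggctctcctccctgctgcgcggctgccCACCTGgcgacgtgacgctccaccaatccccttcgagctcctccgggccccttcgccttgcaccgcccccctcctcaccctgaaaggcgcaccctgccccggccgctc
Chodl: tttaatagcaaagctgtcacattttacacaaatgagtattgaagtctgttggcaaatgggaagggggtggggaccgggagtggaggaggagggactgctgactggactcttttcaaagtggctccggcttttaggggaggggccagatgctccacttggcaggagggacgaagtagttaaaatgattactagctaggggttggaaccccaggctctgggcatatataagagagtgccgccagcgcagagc
The Itga4 window holds 1 CAGCTG, the Nrk window 1 CAGGTG and the Chodl window neither. In the same 250 bases, 13% of 32851 promoters hold CAGCTG and 17.2% hold CAGGTG, so a match is a description of these letters and nothing more.

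The first comparison asked how the progenitors differed from all other day 11 cells. Itga4, the alpha-4 integrin chain that binds fibronectin and Vcam1, was at 142 CPM against 8.44 CPM, 16.9-fold (95% interval 15.3 to 18.6). Car3, the carbonic anhydrase that is abundant in muscle, was at 206 CPM against 13.2 CPM, 15.6-fold (95% interval 14.4 to 16.9). Pdgfa, a ligand of the receptor Pdgfra on mesenchyme, was at 224 CPM against 26.6 CPM, 8.42-fold (95% interval 7.84 to 9.04). Thus an adhesion molecule, a muscle enzyme and a secreted growth factor led the list, and the progenitors carried very little of the receptor for the latter, with Pdgfra at 5.1 CPM. Of the 3265 genes at 50 CPM or more on either side, 149 were 2-fold or more higher in the progenitors (4.56%) and 381 were 2-fold or more lower (11.7%). Of the 149, 4 belong to the rule. When the sums were scaled by the trimmed mean of M values, which moved all log2 ratios by 0.26 relative to CPM, the calls became 332 higher and 261 lower, so the balance of higher and lower genes depends on the scaling (28.1% of calls higher with CPM, 56.0% with the other).

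The other genes among the 25 with the largest ratios had smaller ones. Tnnt1, the slow skeletal troponin T, was at 475 CPM against 100.1 CPM, 4.74-fold (95% interval 4.53 to 4.97). Capn6, a calpain without protease activity, was at 254 CPM against 43.2 CPM, 5.88-fold (95% interval 5.51 to 6.27). Nrk, a Nik-related kinase, was at 423 CPM against 96.1 CPM, 4.4-fold (95% interval 4.19 to 4.62). Itm2a, a membrane protein gene that is a known target of Pax3 in muscle precursors, was at 1813 CPM against 572 CPM, 3.17-fold (95% interval 3.09 to 3.24). The list also held the cell cycle gene Ccne1 (4.46-fold) and the S phase gene Cdca7 (2.91-fold). Lyar, Rrp15, Mrto4, the RNA helicase gene Ddx21 and the dyskerin gene Dkc1 were 2.72 to 3.1-fold higher, and the small nucleolar RNA host gene Snhg4 was 5.29-fold higher. Srm, the spermidine synthase, was 2.99-fold higher and the mitochondrial chaperone Hspd1 2.81-fold higher. The remaining members, S100a10, Parm1, Pdlim4, Ppp1r14b, Ppp1r14a, Dctpp1, Cenpv and Acsl3, were 2.72 to 4.02-fold higher.

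**Figure D1:**
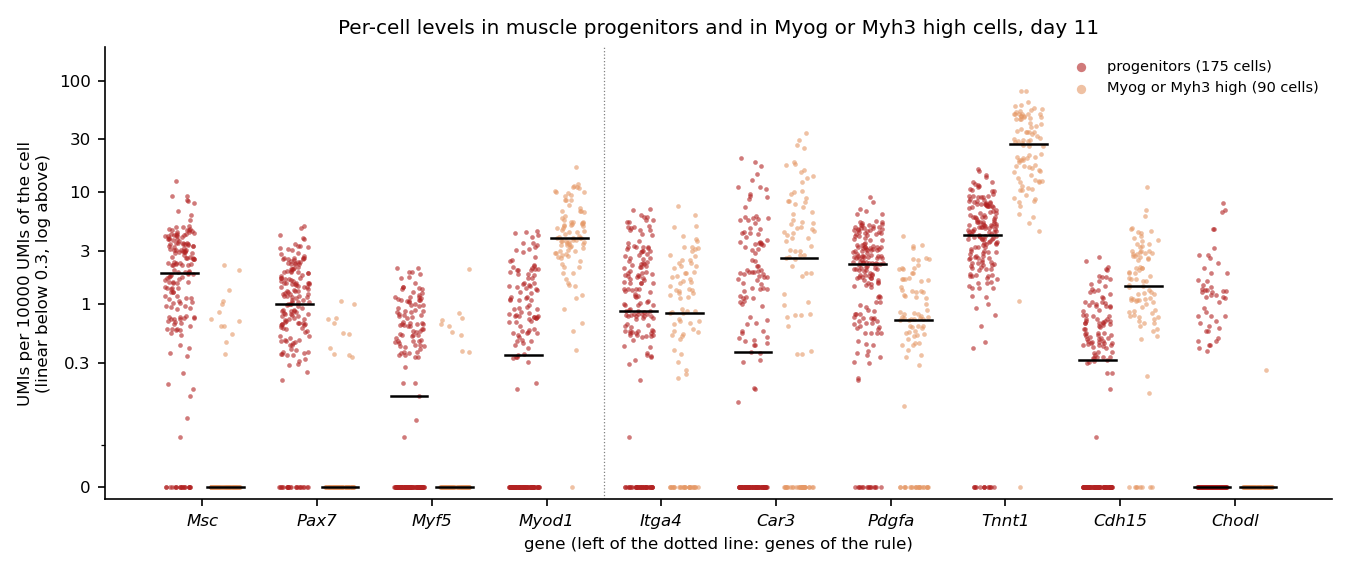
Level of the 4 defining genes and of 6 further genes in each cell, as UMIs per 10000 UMIs of the cell (linear below 0.3, log above), for the 175 progenitors and the 90 Myog or Myh3 high cells of day 11; each point is a cell and the black line is the median. Tnnt1 is found in 92.6% of progenitors and is higher in the Myog or Myh3 high cells, whereas Chodl is found in 48 progenitors and in 1 of the 90 other cells.

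After thinning, Itga4 was found in 40.00% (32.7 to 47.7) of progenitors, 44.3% (33.7 to 55.3) of Myog or Myh3 high cells and 3.41% (2.76 to 4.17) of mesenchyme cells. Car3 was found in 38.3% (31.1 to 45.9) of progenitors, 56.8% (45.8 to 67.3) of Myog or Myh3 high cells and 2.87% (1.96 to 4.05) of neural cells, and in 0 of 519 endothelium cells, which allows a share of up to 0.578%. Cdh15, the muscle cadherin, was found in 17.7% (12.4 to 24.2) of progenitors and 52.3% (41.4 to 63) of Myog or Myh3 high cells, against 0.133% (0.0161 to 0.478) of the cells above the Myl7 limit, which have a like depth. Before thinning these genes were found in 132, 94 and 95 of the 175 progenitors. In the 5 sets outside muscle the shares ran from 0.578 to 4.01% for Itga4, from 0 to 2.87% for Car3 and from 0 to 0.392% for Cdh15, and those in the progenitors lay above all of them.

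**Figure D2:**
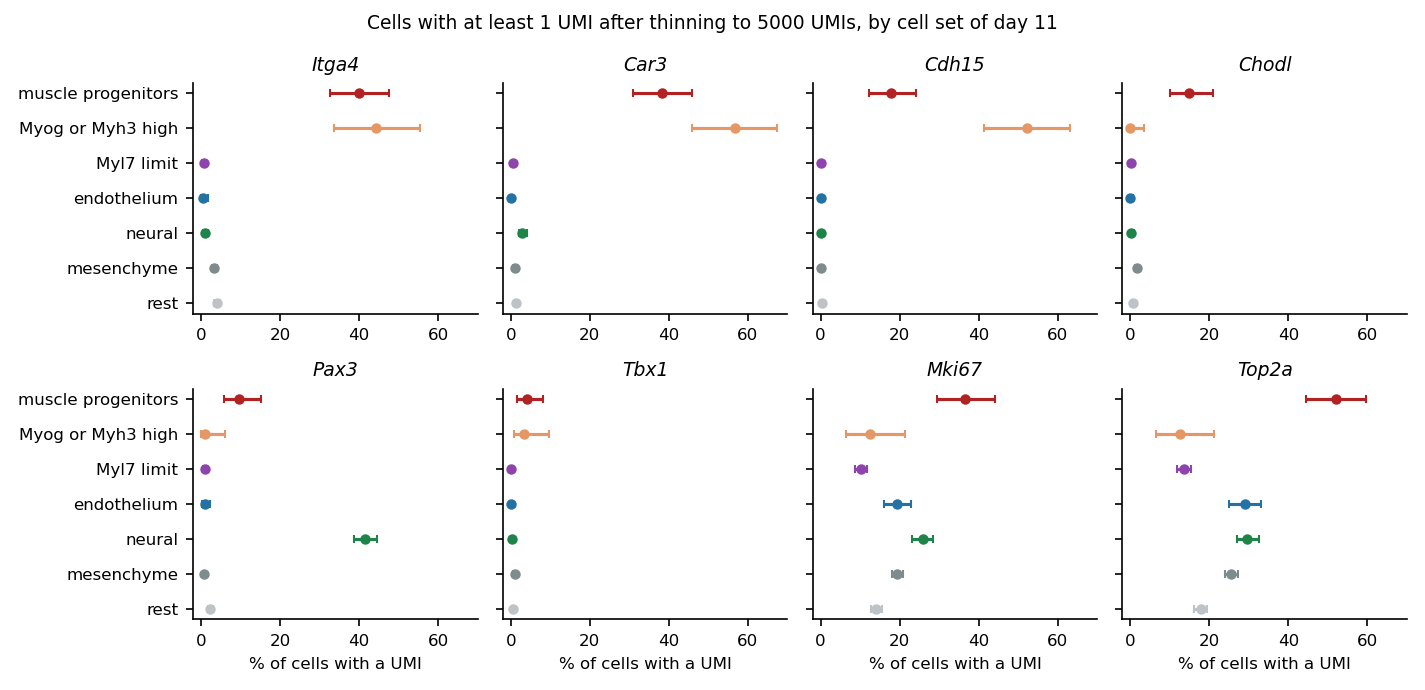
Percentage of cells with at least 1 UMI of 8 genes after each cell was thinned to 5000 UMIs, by cell set of day 11; bars are exact 95% binomial intervals, or for a share of 0 the limit of 3 cells, and cover counting error only. Itga4 is found in 40.0% of progenitors and Top2a in 52.0%, while Chodl, at 14.9%, is at 0 of the 88 thinned Myog or Myh3 high cells.

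Regulators of myogenesis outside the rule were present at low levels, mostly under the 50 CPM limit. Eya1 and Eya4, transcriptional coactivators that act in muscle precursors, stood at 36.6 CPM against 4.07 CPM, 8.99-fold (7.49 to 10.7) over all other cells for Eya1 and at 41.5 CPM against 4.38 CPM, 9.47-fold (7.98 to 11.2) for Eya4. Met, the receptor for HGF that migrating limb precursors use, was at 24.1 CPM against 2.72 CPM, 8.87-fold (7.07 to 11). Lbx1 and Dmrt2, which mark migrating and somitic precursors, were 3.13 and 4.52-fold higher. Mef2c, a cofactor of the myogenic factors in differentiation, was in contrast at 26.4 CPM against 131 CPM, 4.97-fold lower (4.14 to 6.03), with 26.3% of its UMIs in 1 progenitor. Of the 26 progenitor and satellite cell genes, 9 reached 50 CPM, of which Itga4, Car3 and Hey1 were higher and Sdc4, Cav1, Dag1 and Dlk1 were lower. Over all genes tested 4.56% were higher and 11.7% lower. With the other scaling 7 of the list reached 50 CPM, where the same 3 were higher and only Dlk1 was lower. Fgfr4, an FGF receptor known in muscle progenitors, was scarce, at 6.72 CPM against 0.201 CPM, 33.3-fold (19.2 to 57.8). Sox8 was at 18.3 CPM against 1.33 CPM, 13.7-fold (10.4 to 17.9). Cd34, a satellite cell antigen, cannot be read here, since 56.2% of its UMIs came from 1 cell.

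Genes of the Notch, FGF, BMP and IGF pathways were then compared with the other day 11 cells. Hey1, a Notch target repressor, was found in 109 progenitors at 56.5 CPM against 19.4 CPM, 2.92-fold (2.55 to 3.33), and its relative Heyl at 11.1 CPM against 4.28 CPM, 2.6-fold (1.89 to 3.49). Lfng, which glycosylates Notch receptors, was at 15.8 CPM against 1.88 CPM, 8.4-fold (6.34 to 11). Notch3 was at 31.3 CPM against 15.1 CPM, 2.07-fold (1.72 to 2.46), whereas Notch1 was lower, at 15.8 CPM against 30.02 CPM, 1.91-fold lower (1.5 to 2.46). Of the 17 Notch pathway genes, 3 reached 50 CPM and only Hey1 passed 2-fold. Among FGF genes, of which none of 14 reached 50 CPM, Fgf5 was at 9.03 CPM against 0.875 CPM, 10.3-fold (7.01 to 14.9) and Fgf10 at 13.2 CPM against 4.98 CPM, 2.65-fold (1.99 to 3.47). Nog, a secreted BMP antagonist, was at 22.2 CPM against 3.16 CPM, 7.03-fold (5.58 to 8.78). Of the insulin-like growth factor genes, Igfbp2 was at 392 CPM against 149.9 CPM, 2.61-fold (2.49 to 2.75), and Igf1 itself was at 25.2 CPM against 109 CPM, 4.33-fold lower (3.59 to 5.28).

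The second comparison set the progenitors against the 90 Myog or Myh3 high cells. An order in time between the 2 sets was not tested, and 23 of the 90 cells fell into the cluster that held most progenitors. The Myog and Myh3 limits define both sets, so Myog (54.9 against 1699 CPM) is no finding. Of 3011 genes tested, 315 were 2-fold or more higher in the progenitors (10.5%) and 302 were lower (10.0%), of which 2 and 3 belong to the rule, and with the other scaling 196 were higher and 378 lower. Apart from Myh3, all 23 skeletal sarcomere genes at 50 CPM or more were lower in the progenitors with either scaling, with a median log2 ratio of -6.02 beside 0.17 over all genes tested. Mylpf, the fast skeletal regulatory light chain, was at 6.72 CPM against 6416 CPM, 955-fold lower (665 to 1427). Tnnc2, the fast troponin C, was at 2.08 CPM against 2449.8 CPM, 1175-fold lower (619 to 2572). Acta1, the skeletal actin, was at 0.232 CPM against 1747 CPM, 7543-fold lower (1353 to 298009), from 1 UMI in the progenitors.

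Apart from Myog, all 9 commitment and fusion genes at 50 CPM or more were lower as well, with either scaling. Over all genes tested 10.0% were lower with CPM and 12.6% with the other scaling. Mymx, which with Mymk fuses myoblasts, was at 5.79 CPM against 459 CPM, 79.2-fold lower (53.3 to 123). Cdkn1a, the cell cycle inhibitor p21, was at 40.3 CPM against 1229 CPM, 30.5-fold lower (26.1 to 35.8), and its relative Cdkn1c was at 3030.5 CPM against 8226 CPM, 2.71-fold lower (2.65 to 2.78). Even so, Cdkn1c was abundant in the progenitors, where it exceeded the other day 11 cells, at 3030.5 CPM against 1767 CPM, 1.72-fold (1.69 to 1.75). Rapsn, a clustering protein of the acetylcholine receptor, was at 20.8 CPM against 157 CPM, 7.51-fold lower (5.92 to 9.6). Not every muscle gene followed this: Itga4 was at 142 CPM against 133 CPM, 1.07-fold (0.925 to 1.24), with an interval that includes 1. Car3 and Cdh15 were also present in the progenitors and were higher in the Myog or Myh3 high cells, by 2.51 and 4.2-fold.

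**Figure D3:**
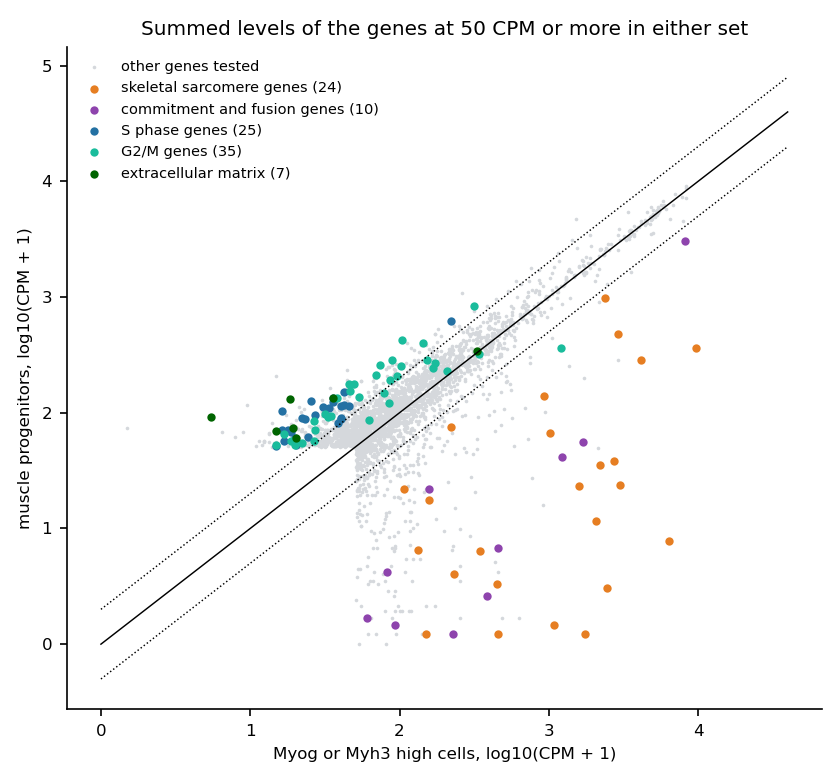
Summed level of each of the 3011 tested genes in the progenitors against the Myog or Myh3 high cells, on log10(CPM + 1) axes; the solid line marks equal levels, the dotted lines 2-fold, and colours mark 5 gene lists with the number of genes tested. The 24 sarcomere genes, Myh3 of the rule included, all lie below the lower dotted line and the 25 S phase genes above the upper one.

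Cell cycle genes went the other way. All 25 of the 25 S phase genes tested were 2-fold or more higher in the progenitors, with a median log2 ratio of 1.82, and 26 of 35 G2/M genes were higher and 1, Jpt1, was lower. Over all genes tested in this comparison 10.5% were higher and 10.0% lower. With the other scaling 20 of 23 S phase and 20 of 32 G2/M genes were higher, beside 6.55% of all genes. In single cells thinned to 5000 UMIs, the S phase genes summed to a median of 14 UMIs (1 to 49) in the progenitors and 2 (0 to 40) in the Myog or Myh3 high cells, so the ranges overlapped although most progenitors were higher. Mcm3, a part of the replicative helicase, was at 110.5 CPM against 20.4 CPM, 5.42-fold (3.94 to 7.65). Mki67, the proliferation antigen, was found after thinning in 36.6% (29.4 to 44.2) of progenitors, against 12.5% (6.41 to 21.3) of Myog or Myh3 high cells and 17% (16.2 to 17.8) of all other cells. Top2a, the topoisomerase of G2 and mitosis, was found in 52% (44.3 to 59.6), 12.5% (6.41 to 21.3) and 21.8% (20.9 to 22.7). Against all other cells the counts were smaller and depended on scaling: 6 of 25 S phase and 3 of 35 G2/M genes were 2-fold or more higher, beside 4.56% of all genes tested, and 17 of 27 and 17 of 38 with the other scaling, beside 10.2% of all genes, with none lower in either. The 3 G2/M genes are thus not far from the share over all genes.

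Matrix, Notch and Id genes completed the difference. Of 7 extracellular matrix genes tested, 6 were higher in the progenitors with either scaling, beside 10.5% and 6.55% of all genes. Col4a1, a basement membrane collagen, was at 130.4 CPM against 17.4 CPM, 7.5-fold (5.33 to 10.9), and Postn, the matricellular periostin, was at 90.6 CPM against 4.47 CPM, 20.2-fold (10.6 to 44.6). Vcan, the proteoglycan versican, was at 234 CPM against 43.2 CPM, 5.42-fold (4.35 to 6.83). The Notch targets Hey1 (56.5 CPM against 10.4 CPM, 5.41-fold (3.46 to 8.91)) and Hes1 (89.9 CPM against 31.8 CPM, 2.83-fold (2.16 to 3.74)) were higher too, while the ligand Dll1 was at 10.4 CPM against 23.4 CPM, 2.24-fold lower (1.46 to 3.45) and Rbpj, the DNA-binding partner of Notch, at 75.5 CPM against 149 CPM, 1.97-fold lower (1.68 to 2.31). Id1, Id2 and Id3, which bind and block helix-loop-helix factors, were 2.93, 3.12 and 2.43-fold higher. Met was at 24.1 CPM against 0.994 CPM, 24.2-fold (6.54 to 203), and Chodl, a membrane lectin, at 41.5 CPM against 0.497 CPM, 83.4-fold (14.8 to 3313), the latter from 1 UMI in the Myog or Myh3 high cells. Of 11 imprinted genes, H19, Cdkn1c, Dlk1 and Meg3 were lower and Mest was higher, beside 10.0% lower and 10.5% higher over all genes tested, so that the single higher gene is at the background, and 6 were lower with the other scaling (12.6% over all genes).

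Against the 2747 mesenchyme cells, which also come from mesoderm, 143 of 3334 genes were 2-fold or more higher in the progenitors (4.29%), of which 4 belong to the rule, and 379 were lower (11.4%). Car3 was at 206 CPM against 6.3 CPM, 32.6-fold (28.2 to 37.8) and Pdgfa at 224 CPM against 10.4 CPM, 21.6-fold (19.2 to 24.4). Tnnt1 was at 475 CPM against 24 CPM, 19.8-fold (18.3 to 21.4) and Actc1, the cardiac and embryonic skeletal actin, at 361 CPM against 83.8 CPM, 4.31-fold (4.05 to 4.58). Structural muscle genes were thus low in the progenitors compared with the Myog or Myh3 high cells but higher than in mesenchyme, where 6 of 8 sarcomere genes tested were higher and none lower. Of 16 matrix genes tested, 11 were 2-fold or more lower in the progenitors and none was higher. Lum, the proteoglycan lumican, was at 2.55 CPM against 103 CPM, 40.3-fold lower (22.5 to 80.8), Col1a1 at 18.1 CPM against 290.2 CPM, 16.1-fold lower (12.9 to 20.3) and the GATA factor gene Gata6 at 6.25 CPM against 162 CPM, 25.9-fold lower (17.8 to 39.3). Sfrp1, a secreted Wnt inhibitor, was at 28 CPM against 373 CPM, 13.3-fold lower (11.1 to 16.1). Pdgfra, Prrx1 and Twist1 chose the mesenchyme cells, so their difference is not a finding.

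Factors of head and of trunk muscle were each found in some of the progenitors. Tbx1, the pharyngeal T-box factor, was found in 27 cells (15.4%) and, after thinning, in 4.0% (1.62 to 8.07) of progenitors, beside 0.278% (0.0573 to 0.809) of neural cells and 0 of 519 endothelium cells, which allows up to 0.578%. The Myog or Myh3 high cells were near the progenitors, with 3.41% (0.709 to 9.64) after thinning, and Tbx1 was at 10.4 CPM in both sets. Pax3, the somite and limb precursor factor, was found in 30 cells (17.1%) and in 9.71% (5.76 to 15.1) after thinning, where neural cells had 41.6% (38.7 to 44.6) and endothelium cells 0.963% (0.314 to 2.23). No cell held both Pax3 and Tbx1: 0 of 175, which allows a share of up to 1.71% of cells with a UMI of each, and 118 cells held neither. Tcf21, another factor of pharyngeal muscle, was found in 29 cells, 12 of them with Tbx1 and 2 with Pax3, and was lower in progenitors than in mesenchyme (10.2 against 48.8 CPM). Isl1, of the cardiopharyngeal lineage, was found in 42 cells, at 19.9 against 15.7 CPM in all other cells, and after thinning in 5.14% (2.38 to 9.54) of progenitors and 4.8% (4.34 to 5.28) of all other cells, with intervals that overlap. The somite gene Meox1 was found in 46 cells, 12 of them with Pax3 and 11 with Tbx1. Lbx1 was found in 43 cells, 6 with Pax3 and 6 with Tbx1. So Tbx1 and Pax3 did not occur together, but by detection Meox1 and Lbx1 did not divide along the same line. By level Meox1 was 2.76-fold (1.73 to 4.34) higher with Pax3 than without. With Tbx1, 1 of 64 list genes with 30 or more UMIs was 2-fold or more higher, Tcf21 at 2.17-fold (1.08 to 4.18). Another 11 were lower, Pax3 and Tcf15 (2.3-fold, 1.45 to 3.85) among them. For this split the rule was not applied to all genes. Cells with Tbx1 had a median of 29315 UMIs against 21396.5 without it, and those with Pax3 22446.5 against 22906, so detection of Tbx1 moved with depth and its part in these counts was not tested.

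Hox genes, which record position along the body axis, were found in 174 of the 175 progenitors, with a median of 8 UMIs in a cell and a highest of 72. After thinning, 78.3% (71.4 to 84.2) of progenitors held a Hox UMI, between 30.4% (28 to 32.7) of the cells above the Myl7 limit and 99.7% (99.2 to 99.9) of neural cells, and near 83.7% (82.2 to 85) of mesenchyme cells. All other cells together had a share of 70.3% (69.3 to 71.3), below that of the progenitors. The summed Hox level of the progenitors was 399 CPM, below the 678 CPM of all other cells, which include the neural cells. It was also below the 712 CPM of mesenchyme and the 524 CPM of the remaining cells. It was above the 232 CPM of the Myog or Myh3 high cells, the 231 CPM of endothelium and the 151 CPM of the cells above the Myl7 limit. The paralogue groups ran from group 2 (21.8 CPM) through group 4 (82 CPM) to group 9 (83.8 CPM) and group 10 (32.2 CPM), with 4.86 CPM of group 11 and 0 UMIs of groups 12 and 13. Progenitors with Pax3 had 542 Hox CPM, against 372 CPM in those without it, and after thinning 86.7% and 76.6% held a Hox UMI. Of the 30 cells with Pax3, 28 did not meet the endothelium or neural rule. Neural cells had 2533 Hox CPM, and the part of the cells that met these rules in the Hox sum was not tested. Progenitors with Tbx1 had 326 Hox CPM, against 417 CPM in those without it, and 26 of these 27 cells held a Hox UMI. After thinning, 81.5% of the cells with Tbx1 and 77.7% of those without it held a Hox UMI, so for Tbx1 the share did not follow the summed level.

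**Figure D4:**
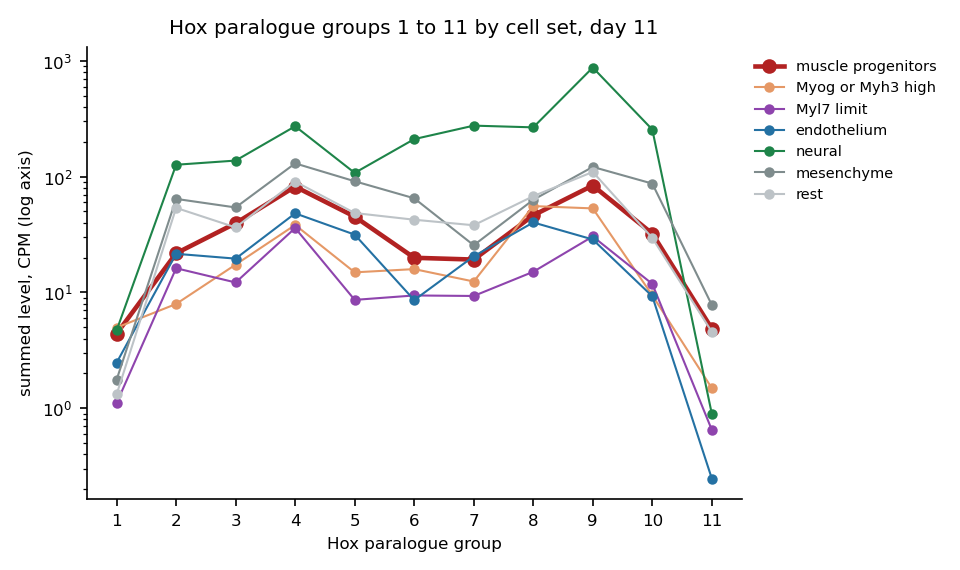
Summed level of Hox paralogue groups 1 to 11 in 7 cell sets of day 11, in CPM on a log axis; the thick red line is the progenitors and each point is the sum over the genes of a group. The progenitors peak at groups 4 (82.0 CPM) and 9 (83.8 CPM) and lie below the neural cells from group 1 to group 10.

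Among themselves, the progenitors with Myod1 (94 cells) and without it (81 cells) differed in genes of the fixed lists. The rule asks for 2 of 4 genes, so cells without Myod1 must hold more of the others, and Pax7 and Msc are left out here. Of 65 list genes with 30 or more UMIs, 7 were 2-fold or more higher and 9 were 2-fold or more lower with an interval that excludes 1. By the same rule 103 of all 8179 genes outside the rule with 30 or more UMIs were higher (1.26%) and 99 were lower (1.21%). Car3 was found in 63 of 94 cells with Myod1 and in 31 of 81 without, at 288 against 94.2 CPM. Cdkn1a was found in 30 and 13 cells, at 59.7 against 14.2 CPM. Sox8 was found in 34 and 13 cells, at 25 against 9.26 CPM, and the Notch ligand Dll1 in 21 and 5 cells, at 13.3 against 6.53 CPM. Chodl went the other way and was found in 14 of 94 and 34 of 81 cells, at 14.1 against 78.4 CPM, 5.56-fold lower with Myod1 (3.82 to 8.29). Isl1 was found in 11 and 31 cells, at 12.1 against 30.5 CPM, and Zic1 in 16 and 24 cells. Tbx1 was found in 20 cells with and 7 cells without Myod1. The cells with Myod1 were deeper, with a median of 24949.5 UMIs against 20825. The largest ratio, that of Myh7, rests on 5 cells in each group, and 1 cell held 83.1% of its UMIs, as 1 cell held 56.2% of those of Cd34.

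**Figure D5:**
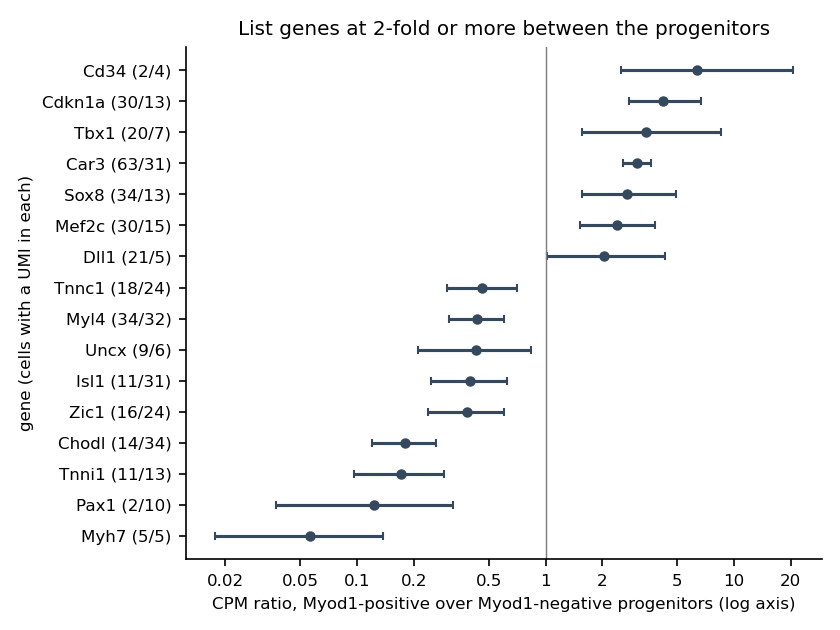
Ratio of summed levels in progenitors with Myod1 over those without, on a log axis, for the 16 list genes at 2-fold or more with at least 30 UMIs; bars are exact 95% intervals for counting error and the numbers beside each gene are the cells with a UMI in each group. Car3, Cdkn1a and Tbx1 lie to the right and Chodl, Isl1 and Zic1 to the left of 1.

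The 152 progenitors with Pax7 and the 23 without it differed at 2-fold in 51 of 2816 genes, 41 higher (1.46%) and 10 lower (0.355%). Cells without Pax7 must hold 2 of the other 3 defining genes, and 2 genes of the rule are among those higher and 2 among those lower. With Pax7, Mki67 was at 189 CPM against 82.3 CPM, 2.29-fold (1.65 to 3.27) and Prc1, a mitotic spindle gene, at 173 CPM against 71.5 CPM, 2.42-fold (1.7 to 3.54). Nusap1, Smc4 and Zfhx3 were 2.38, 2.26 and 2.92-fold higher. Genes of muscle differentiation were higher too. The sarcomere gene Neb was found in 81 and 5 cells, 3.68-fold (1.91 to 8.14), and Rapsn in 53 and 1 cells. Of 65 list genes with 30 or more UMIs, 11 were 2-fold or more higher with Pax7 and 2 lower, with an interval that excludes 1. For this split that rule was not applied to all genes. The inhibitor Cdkn1a was at 30.9 CPM against 119 CPM, 3.86-fold lower (2.75 to 5.36) in cells with Pax7, but it was found in like shares of cells, 37 of 152 (24.3%) and 6 of 23 (26.1%), so the higher level without Pax7 comes from 55 UMIs in 6 cells. Id2 and Id1 were 2.35 and 1.91-fold lower in cells with Pax7. The cells with Pax7 were deeper (median 23482.5 against 17661 UMIs), and only 23 cells stood on the other side.

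Of the 30 progenitors with Pax3 compared with the 145 without, 25 of 2940 genes were 2-fold or more higher (0.850%) and 15 lower (0.510%, 1 of them a gene of the rule). Fabp7, a fatty acid binding protein of neural progenitors, was at 265 CPM against 2.48 CPM, 107-fold (55.1 to 237), but it was found in 4 and 8 cells, and without the 6 progenitors that also met the endothelium or neural rule it was at 4.79 against 2.62 CPM. Ccnd1 likewise went from 3.74-fold to 1.46-fold. Zic1 went from 3.31 to 1.97-fold and Pttg1 from 2.25 to 1.91-fold. The somite genes Uncx, Meox1 and Tcf15 stood at 10.5, 3.15 and 2.57-fold after the same removal. S100a10 was at 194 CPM against 439 CPM, 2.26-fold lower (1.89 to 2.72) in cells with Pax3, and the ratio of cells with to cells without Pax3 was 0.551 without the 29 progenitors that met any other rule. Id2 went from 2.42-fold to 2.33-fold without these 6 cells, to 1.6-fold without the 29 cells and to 1.82-fold without the 12 with high doublet scores. Uncx, Meox1 and Tcf15 stood at 9.18, 2.96 and 2.32-fold without the 29 cells and at 10.9, 3.29 and 2.61-fold without the 12.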

How the data were processed

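The authors deposited raw UMI counts per gene and cell for each of the 4 libraries (10x Genomics Chromium), not normalized and limited to barcodes taken to be cells. The submitters' notes name Cell Ranger 3.1.0 and build mm10, and the header of the day 11 matrix names version 6.0.1. Percent, fold and CPM values derive from these deposited counts. The day 11 library held 149169498 UMIs in 9584 cells. The members and the gene lists were chosen with earlier results of these data known. Cells were kept with at least 2000 UMIs and under 20% of UMIs from genes named mt-. Counts were summed over the cells of a set and scaled to CPM. Genes with 50 CPM or more in either set were compared, and a gene was called at a 2-fold ratio. Ratios have exact conditional binomial 95% intervals, and shares have Clopper-Pearson intervals, which cover counting error only. A UMI from free RNA cannot be told apart from one of the cell itself. There was 1 library per day, so no test was run. A share of 0 was given the limit of 3 cells in place of an interval.

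The text names the fixed lists, the 25 genes of at least 100 CPM with the largest ratio over all other cells, the 10 at each end for the Myog or Myh3 high and mesenchyme comparisons, and the 5 at each end for the Pax7 and Pax3 splits, and gives single values for a part of these, while some list genes are not reported here. The genes of the Myod1 split and of the low list genes were chosen after their values were seen. Doublet scores were computed with the Scrublet method in scanpy 1.11.5, whose automatic threshold marked 0 cells, so an alternative dropped the cells of the top 8% of scores. Leiden clustering used the igraph 0.11.9 implementation in scanpy. Cells were thinned without replacement. Trimmed mean of M values scaling used edgeR 4.0.16. Ratio calls and intervals were tested on simulated data. Promoter windows came from RefSeq (GRCm38.p6), with 250 bases before each start.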

Additional observations from a re-analysis of the deposited data

How the results depend on the processing

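No paired analysis was possible because each day has 1 library. Of 123 values of the main counts and shares under the alternatives, 101 stayed within 1.5 times the count or within the counting interval of the share. Asking for 3 of the 4 genes left 107 cells, and applying the rule after thinning to 5000 UMIs left 56, of which 100% held a Hox UMI in their full counts. The number of genes higher in progenitors than in all other cells (149) was 252 with a minimum of 20 CPM, 83 with 100 CPM, 1170 with none, 36 at 3-fold and 332 with trimmed mean scaling. Those higher than in Myog or Myh3 high cells (315) were 731, 153, 4605, 109 and 196, and those lower (302) were 559, 170, 2620 and 199 under the first 4 of these. With 2 UMIs asked for, 10.9% of progenitors were positive for Pax3, 95.4% for a Hox gene and 18.9% for Mki67. The Mki67 share was 21.1% at 2000 UMIs and 54.3% without thinning. Leaving out the 12 progenitors with high doublet scores, the 29 that met another rule, the 6 that met the endothelium or neural rule, or the 13 outside the main cluster moved none of these counts by over 1.5 times and no share out of its interval (the last 2 were chosen after seeing the data). The 31 gene ratios over all other cells include the 25 chosen for their large ratio, so their staying above 1 is no support. Of their 527 values under the alternatives, 409 stayed within the counting interval, 71 lay above it and 47 below it. None fell below 1, and 17 values were under 2, the lowest 1.25. Depth limits low genes such as Tbx1, with 45 UMIs in all progenitors.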

Other observations

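Some genes known from tissues other than skeletal muscle were found in part of the progenitors. Prrx1, a limb mesenchyme homeobox gene that is part of the mesenchyme rule, was found in 97 cells at 66.5 CPM, against 343 CPM in mesenchyme. Scx, of tendon precursors, was found in 53 cells at 25.5 CPM against 19.9 CPM, 1.28-fold (1.05 to 1.55) over all other cells, and Erbb3, a neuregulin receptor also known in neural crest, in 58 cells at 24.3 CPM against 2.0 CPM, 12.2-fold (9.63 to 15.2). Acta2, the smooth muscle actin, which early skeletal muscle also uses, was at 283 CPM in progenitors and at 2916 CPM in Myog or Myh3 high cells, while Myh11, of mature smooth muscle, was at 0 UMIs in the progenitors. Tgfb2, a secreted TGF-beta ligand, was at 227 CPM against 101 CPM, 2.24-fold (2.1 to 2.39). The source of these transcripts was not tested.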
